A study of Mus musculus with 2 samples.

Results

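The myogenic nuclei described here came from 1 single-nucleus RNA-seq library of the hematoma and callus of the mouse tibia, collected at day 5 after musculoskeletal traumatic injury (MTI), in which the bone was fractured and the adjacent muscles were crushed. Of the 1446 barcodes in the library, 1127 passed the filters set for it (200 to 5000 genes, under 5% mitochondrial UMIs and under 2% ribosomal protein UMIs), and 127 of these 1127 took at least 0.5% of their UMIs, the unique molecules counted, from 7 muscle genes (Ttn, Neb, Ckm, Myh1, Myh4, Acta1 and Pax7). The 127 members were 11.3% of the retained nuclei (exact Clopper-Pearson 95% interval 9.48 to 13.3%). The study treated such nuclei as contamination from muscle and left them out of its own comparisons.

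The mice were adults for which the labels give the genotype C57BL6 and no transgene or treatment, and the nuclei of 3 or 4 mice were pooled before loading, so that no value could be assigned to a single mouse. The library was made from dye-sorted nuclei of callus, hematoma and scraped periosteum, after dissection away from the tissue around the bone. The other library used here, from C57BL6 mice at day 1 after fracture, differed in day, injury and depth, and these cannot be told apart. With 1 library per condition no difference was tested over animals, and every interval given below covers counting error only.

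Skeletal muscle fibres are long cells with many nuclei, filled with sarcomeres in which myosin thick filaments slide along actin thin filaments, while the giant proteins titin and nebulin set the length of each filament system. Satellite cells are the resident stem cells of muscle and are marked by the transcription factor Pax7. After injury they divide, switch on Myod1 and then Myog, fuse with the help of Mymk, and build new fibres that first use the developmental myosins Myh3 (embryonic) and Myh8 (perinatal) and later the adult fast myosins Myh2, Myh1 and Myh4.

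Ttn carried most of the rule. Of the 37735 rule-gene UMIs in the members, 27024 (71.6%, interval 71.2 to 72.1%) were Ttn, encoding titin, and were found in 126 of the 127 nuclei. Neb, encoding nebulin, gave 8592 UMIs in 124 nuclei. The fast myosins Myh4 (957 UMIs, 54 nuclei) and Myh1 (713 UMIs, 54 nuclei) and the skeletal actin Acta1 (239 UMIs, 79 nuclei) followed, and Ckm, the muscle creatine kinase, gave 185 UMIs in 52 nuclei. Pax7 gave 25 UMIs in 16 nuclei, or 0.0663% of the rule-gene UMIs. These values chose the members and are given as a description. Of the markers that name these nuclei, Ttn and Neb were found in nearly all of them and Myh4 in 54, whereas Pax7 was near absent. Ttn lies at chr2:76703980-76982547 and Neb at chr2:52136647-52378474, both on the reverse strand, and Pax7 at chr4:139737062-139833528 on the reverse strand (mm10).

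The share of UMIs taken by the 7 genes ran from 0.510% to 33.9% with a median of 4.73%. The nuclei just inside the threshold had shares of 0.510%, 0.536% and 0.589%, and those just outside had 0.468%, 0.432% and 0.422%. Members held 509 to 22993 UMIs (median 5018, 801496 in all) against a median of 2256 UMIs in the 1000 other retained nuclei. Across the 127 members the logarithms of depth and of the rule-gene share had a Pearson correlation of -0.27, both axes containing the same UMI total. Among the bands of the share, 9 nuclei lay at 0.5 to 1%, 11 at 1 to 2%, 48 at 2 to 5% (median 8738 UMIs) and 59 at 5% or more (median 2809 UMIs).

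Before the results, 33 barcodes of the library were also present in the day 1 library. They included 17 members (13.4%), 12 of the 1000 other retained nuclei (1.20%) and 4 barcodes that failed the filters. In 14 of the 17 members the day 1 total was 0.846 to 1.09 times the MTI total, with 522 to 962 UMIs (median 592) in the MTI library and 445 to 814 (median 558.5) in the day 1 library. These 14 also took similar shares from the rule genes, with medians of 23.3% and 24.1%, and 49.3% of the UMI profile overlapped at the median. The shared barcodes outside the members had day 1 totals of no more than 341 UMIs and a median profile overlap of 10.6%. Of the 12 members with 20% or more of their UMIs in the rule genes, 11 had a shared barcode. Without the shared barcodes there were 110 members of 1098 retained nuclei (10.0%, interval 8.31 to 11.9%), with a median of 6027 UMIs and a median rule-gene share of 4.30%, and the correlation of depth and share was 0.05. What the shared barcodes stand for was not tested, and results that rest on them are given with and without them.

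**Figure D1:**
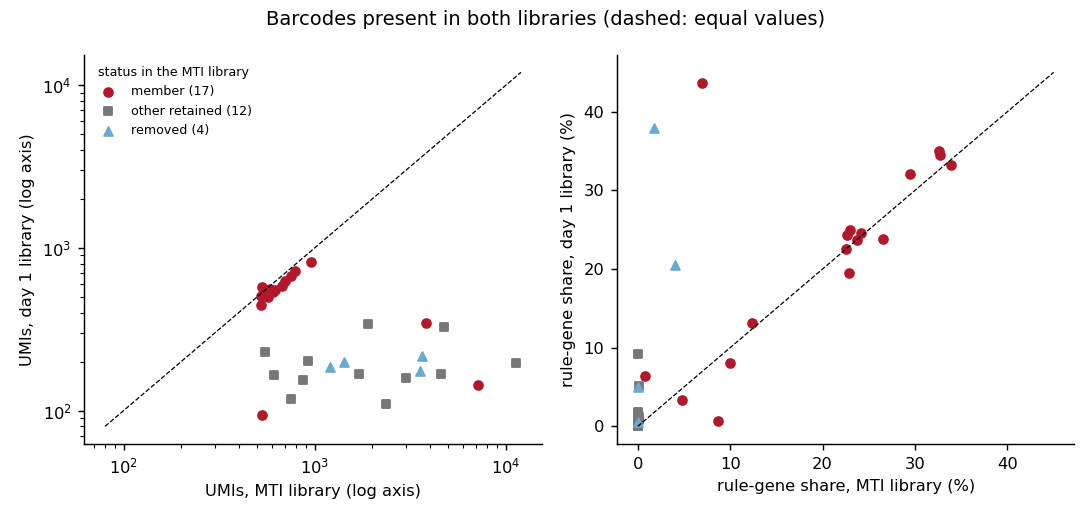
The 33 barcodes found in both libraries: UMI totals on log axes (left) and the percentage of UMIs in the 7 rule genes (right), with the MTI library on the x axis, the day 1 library on the y axis and dashed lines of equal values. Most of the 17 members (red) lie near the dashed line in both panels, whereas the other retained (grey) and removed (blue) barcodes have low day 1 totals.

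**Figure D2:**
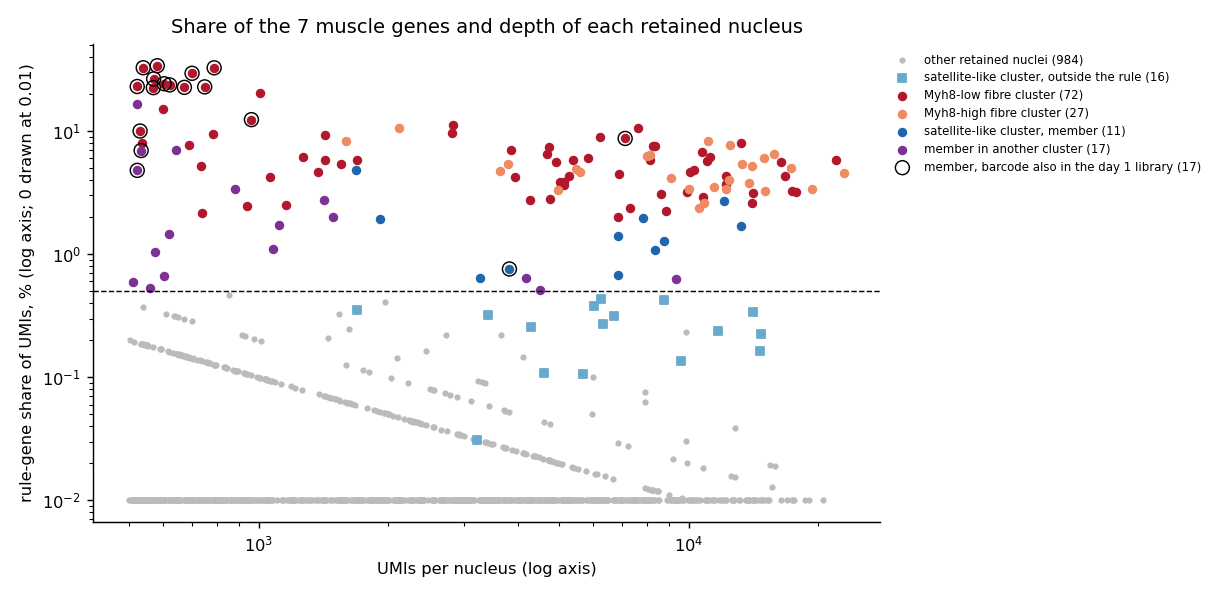
Percentage of UMIs in the 7 rule genes (y axis, log scale, 0 drawn at 0.01) against UMIs per nucleus (x axis, log scale) for the 1127 retained nuclei, the dashed line marking 0.5%. Members are coloured by cluster and ringed where the barcode is shared, and most of the 17 ringed nuclei lie at low depth and high share.

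To see how the members relate to each other, the 1127 nuclei were clustered on variable genes without the 7 rule genes. The members fell into a fibre-like cluster of 99 nuclei, all of them members (78.0%), a satellite-like cluster of 27 nuclei of which 11 were members (8.66%), and 17 nuclei spread over 6 other clusters (13.4%). The fibre-like cluster was led by Nctc1, Myot, Smpx, Art1, Ampd1, Ppp1r3a, Myh1 and Trdn, and the satellite-like cluster by Chodl, Dcx, Pax7, Prox1, Chrna7, Sox8, Cdh15, Iqsec3, Fgfr4 and Msc, of which Pax7, Chodl, Cdh15, Fgfr4 and Msc are satellite cell genes. At a finer resolution the fibre-like cluster separated into 72 nuclei (median 4746.5 UMIs) almost without Myh8 and 27 nuclei (median 11087 UMIs) rich in Myh8, called Myh8-low and Myh8-high here. At a coarser resolution the fibre-like and satellite-like clusters merged into 1 cluster of 126 nuclei. All 27 Myh8-high nuclei had a barcode of their own, while 14 of the 72 Myh8-low nuclei had a shared barcode. The clusters were formed on the genes compared below, so that the ratios between them describe the clusters and test nothing.

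Against the other retained nuclei the members were higher in nearly all sarcomere genes, a contrast which the rule itself used. Levels were summed over nuclei and expressed per 1000000 UMIs (CPM), and a gene was counted where its ratio of CPM was at least 2, over genes with at least 10 UMIs in both groups together. Of 15213 genes counted, 12.4% were higher in the members and 32.5% were lower. The higher ones included 10 of 10 counted thick filament genes, 11 of 12 thin filament genes, 16 of 17 Z-disc genes, 17 of 17 genes of excitation-contraction coupling, which links the nerve signal to calcium release, and 10 of 10 genes of the dystrophin complex and membrane repair. Myot, encoding the Z-disc protein myotilin, gave 212 UMIs in 57 members and 0 in the other nuclei, at least 312-fold higher against 3 counts. Pvalb, encoding the calcium buffer parvalbumin of fast fibres, gave 93 UMIs and 0, at least 137-fold higher. Trdn, encoding triadin at the calcium release site, gave 3091 UMIs in 103 members, 341-fold the level elsewhere (interval 250 to 478). Dmd, encoding dystrophin, was the most abundant gene of the membrane list with 9991 UMIs in 114 members.

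Genes of other cell types were low in the members. Among markers of immune cells 12 of 13 were lower, among fibrogenic markers 13 of 14, and among the cell cycle genes 22 of 25, with median ratios of 0.101, 0.0649 and 0.145 against 0.765 over all genes. Cdh13 supplied 2491 of the 2613 UMIs of the vascular list in the members and was detected in 97 of them, whereas the endothelial genes Pecam1 (7 UMIs), Emcn (1), Eng (2) and Kdr (3) were near absent. Globin and other erythroid genes gave 5 UMIs in all members together, with Hba-a1, Hba-a2 and Hbb-bt at 0. The osteoclast list gave 10 UMIs, or 12.5 CPM against 244 CPM in the nuclei outside the members and the satellite-like cluster, called the rest below. Those 984 nuclei carried the fibrogenic and immune genes of the labelled periosteum and callus, with Col1a2, a chain of collagen I, in 336 of them and Ptprc, the pan-leukocyte marker, in 545.

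**Figure D3:**
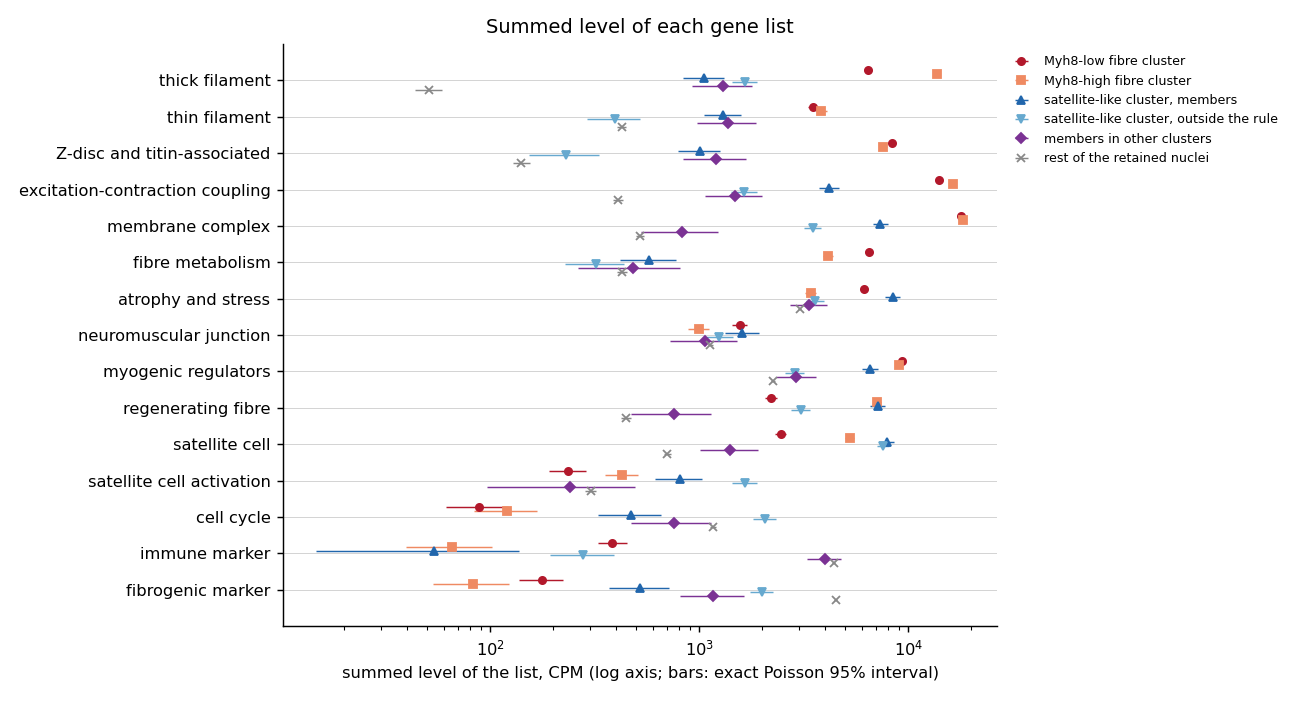
Summed level of 15 gene lists in CPM (x axis, log scale) in the 6 groups of retained nuclei, with bars for the exact Poisson 95% interval of counting error. Sarcomere and membrane lists lie far right in the 2 fibre clusters, the regenerating fibre list is higher in Myh8-high nuclei (7104 CPM) than in Myh8-low nuclei (2216 CPM), and the immune list is low in both.

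The 2 fibre clusters differed first in their myosins. The fast and developmental myosin heavy chain genes lie side by side on mouse chromosome 11, with Myh4 at chr11:67238029-67260446 and Myh8 at chr11:67277124-67308634 (mm10, forward strand). The 250 bases upstream of the RefSeq start are shown for Myh8, which names the clusters, and Myh4, the main myosin of Myh8-low nuclei. Those of Pax7 and Myog are shown because these genes mark the start and the later part of the path from satellite cell to fibre. RefSeq starts differ from the mm10 gene spans given here, so that the Myh4 window ends short of its span, the Myog window reaches into its span and the Pax7 window lies within its span. The sequences are those of RefSeq (GRCm38.p6), 5′ to 3′ on the strand of the gene, and capitals mark CAGCTG, an E-box bound by myogenic factors, and CATTCC, the M-CAT motif bound by TEAD factors, each searched on both strands and sharing no bases with the other.
Myh4 (chr11:67237562-67237811): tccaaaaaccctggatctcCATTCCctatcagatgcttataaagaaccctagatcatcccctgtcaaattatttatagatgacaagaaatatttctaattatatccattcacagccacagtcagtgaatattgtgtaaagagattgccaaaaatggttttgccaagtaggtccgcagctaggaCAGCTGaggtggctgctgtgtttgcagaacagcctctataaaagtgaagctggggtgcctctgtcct
Myh8 (chr11:67276874-67277123): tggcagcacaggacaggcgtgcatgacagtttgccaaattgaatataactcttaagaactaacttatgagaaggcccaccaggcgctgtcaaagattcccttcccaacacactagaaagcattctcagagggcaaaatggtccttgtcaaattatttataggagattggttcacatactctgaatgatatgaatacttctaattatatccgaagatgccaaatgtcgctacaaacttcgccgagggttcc
Myog (chr1:134289754-134290003): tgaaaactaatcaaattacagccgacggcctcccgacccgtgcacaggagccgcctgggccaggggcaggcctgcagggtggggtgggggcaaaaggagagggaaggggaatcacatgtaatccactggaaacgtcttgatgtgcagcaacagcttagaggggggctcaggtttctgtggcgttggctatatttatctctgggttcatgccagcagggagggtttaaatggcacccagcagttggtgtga
Pax7 (chr4:139832969-139833218, reverse strand): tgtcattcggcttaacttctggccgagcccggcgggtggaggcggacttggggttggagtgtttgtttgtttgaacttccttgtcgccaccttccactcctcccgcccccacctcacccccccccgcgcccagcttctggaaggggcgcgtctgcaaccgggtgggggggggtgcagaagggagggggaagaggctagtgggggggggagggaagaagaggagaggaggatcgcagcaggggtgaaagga
The Myh4 window held 1 match of each motif and the other windows held none, which says only that these letters are not in these windows. Over 32851 RefSeq promoters of the same length, 13.0% held CAGCTG and 12.6% held CATTCC. Of the 55 promoters found for 80 genes of 6 fibre lists, 30.9% held CAGCTG and 20% held CATTCC.

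In Myh8-low nuclei Myh4 was the main myosin, at 1669 CPM (681 UMIs in 36 of 72 nuclei, up to 140 in 1 nucleus), followed by Myh1 at 831 CPM (339 UMIs in 32 nuclei). Myh3 stood at 123 CPM (50 UMIs in 14 nuclei) and Myh8 at 7.35 CPM (3 UMIs in 3 nuclei). Without shared barcodes Myh4 was found in 29 of 58 Myh8-low nuclei (673 UMIs), Myh1 in 19 (279 UMIs), Myh3 in 7 (41 UMIs) and Myh8 in 1 (1 UMI). In all, the 72 nuclei held 1102 UMIs of the adult fast myosins and 53 of the developmental ones. In Myh8-high nuclei Myh8 reached 1836 CPM (532 UMIs in 21 of 27 nuclei, up to 87 in 1 nucleus) and Myh3 1049 CPM (304 UMIs in 23 nuclei). Adult Myh1 (1270 CPM, 16 nuclei) and Myh4 (921 CPM, 16 nuclei) were present there as well. Of the 27 Myh8-high nuclei, 22 held UMIs of both an adult and a developmental myosin, and in 16 of the 27 the developmental myosins Myh3 and Myh8 outnumbered the adult ones.

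Per kilobase of gene span, the order of levels over all members was Myh4 (53.3 CPM per kb), Myh1 (36.3), Myh8 (21.3), Myh3 (19.3), Myh2 (4.66) and the slow myosin Myh7 (0.469). How far UMI counts of the 3′ kit scale with gene span was not tested. Myh8 and Myh3 were neighbours in this order, with 537 UMIs in 25 nuclei and 372 UMIs in 43 nuclei. Because the coding parts of these paralogs are alike, reads shared between them could have been dropped in counting. In the day 1 library the same rule kept 4409 of 5410 filtered barcodes (81.5%) at a median of 384 UMIs, and Myh1 (2080 UMIs), Myh4 (1256) and Myh2 (265) stood beside 18 UMIs of Myh3 and 17 of Myh8. At that depth a few UMIs pass the threshold, and all 48987 day 1 barcodes had a median rule-gene share of 1.49% (median 157 UMIs). Whether the barcodes kept at day 1 are muscle nuclei was not tested, so they are not counterparts of the members. Day 1 barcodes under 200 genes, which the filters removed, held 413 UMIs of Myh3 and 332 of Myh8, or 3.18% and 2.56% of their myosin UMIs against 0.493% and 0.466% in those kept. Myh2, the myosin of type IIA fibres, gave 99 UMIs in 19 members, and 58 UMIs in 5 members without the shared barcodes, so that most of the nuclei with Myh2 had a shared barcode. Likewise, 10 of 72 Myh8-low nuclei held both adult and developmental myosins, but 3 of 58 when shared barcodes were left out.

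**Figure D4:**
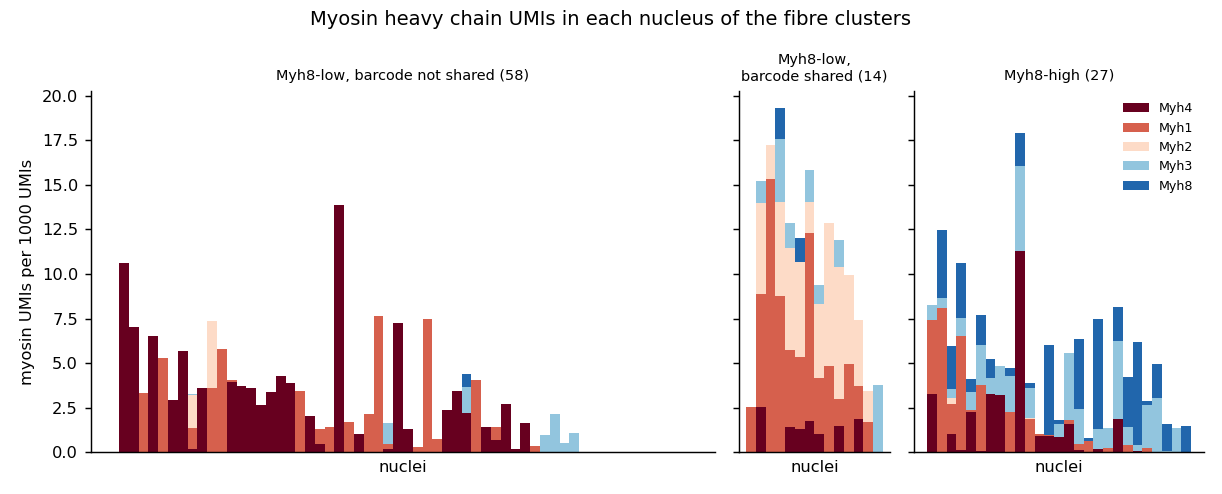
Myosin heavy chain UMIs per 1000 UMIs (y axis) in each nucleus of the fibre clusters, 1 bar per nucleus, stacked by gene. The 58 Myh8-low nuclei with their own barcode show mainly Myh4 and Myh1, most of the 14 with a shared barcode show Myh1 and Myh2, and 22 of the 27 Myh8-high nuclei combine adult with developmental myosins.

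Over all 7243 genes counted between the 2 fibre clusters, 15% were at least 2-fold higher in Myh8-high nuclei and 15% were at least 2-fold lower (15.1% and 14.9% without shared barcodes). The median mitochondrial share was 0.429% in Myh8-high and 0.0694% in Myh8-low nuclei, and its part in these differences was not tested. Of the regenerating fibre list, which holds developmental sarcomere and fusion genes, 7 of 9 counted genes were higher and none lower, with a median ratio of 4.22 against 1.01 over all genes. Myh3 was 8.56-fold higher (interval 6.33 to 11.8) and remained 10.0-fold higher without shared barcodes. Tnnt2, the cardiac troponin T used by new fibres, was 4.22-fold higher (2.31 to 8.16). Ncam1, an adhesion molecule of new and denervated fibres, was 2.80-fold higher (903 UMIs against 454) and was found in all 27 Myh8-high and 33 of 72 Myh8-low nuclei. When each nucleus was thinned to 500 UMIs, Ncam1 was found in 66.7% of Myh8-high, 16.7% of Myh8-low and 6.40% of the 984 nuclei of the rest, whose median depth was 2179 UMIs. Cdh2, encoding N-cadherin, gave 29 UMIs in Myh8-high nuclei and 0 in Myh8-low nuclei, at least 13.6-fold higher against 3 counts. Igfn1 went the other way at a ratio of 0.638, short of 2-fold.

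Of the sarcomere lists, 4 of 9 counted thick filament genes were higher in Myh8-high nuclei and 2 lower, 4 of 12 thin filament genes were higher and none lower, and 1 of 17 Z-disc genes was higher and 1 lower, while 15% of all genes lay on each side. Of the excitation-contraction coupling list 3 of 17 counted genes were higher and 1 lower. Among the higher ones, Casq2, the calsequestrin of slow and cardiac muscle, was 28.2-fold higher (10.6 to 106, from 80 UMIs against 4). Mybpc1, a slow myosin-binding protein C, was 3.05-fold higher (2.82 to 3.29) and present in all 27 nuclei. Actn2, encoding the Z-disc crosslinker alpha-actinin 2, was 3.21-fold higher, and Mylpf, the fast regulatory light chain, 4.04-fold higher (2.87 to 5.78). Not every contractile gene followed, since Ttn (ratio 0.830), Neb (1.01) and Tpm1 (0.756) lay within 2-fold and Tcap, a titin cap protein, was lower (0.258, interval 0.122 to 0.495). Of 10 counted genes of the dystrophin complex and membrane repair, 4 were higher in Myh8-high nuclei and none lower (median ratio 1.70). Among them, Sntb1, encoding beta-1-syntrophin, was 9.15-fold higher (6.36 to 13.5) while Dmd was at 12776 CPM in Myh8-high and 14782 CPM in Myh8-low nuclei.

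The myotendinous junction list, genes of the nuclei at fibre tips, had 4 of 7 counted members higher and 1 lower. Fras1, a basement membrane protein, was 14.3-fold higher in Myh8-high nuclei (9.36 to 22.7), and Lama2, encoding the laminin alpha-2 chain, was 5.90-fold higher (4.64 to 7.58). The defining gene Col22a1 gave 7 UMIs in 3 members, 6 of them in 2 Myh8-high nuclei, and Tigd4 gave none. Igf2, an imprinted fetal growth factor, was 5.56-fold higher (3.32 to 9.74), and Peg3, an imprinted gene of satellite cells, 3.22-fold higher (2.67 to 3.90). Of the satellite cell list, which holds Peg3, 5 of 10 counted genes were higher and 3 lower, and of the satellite cell activation list, which holds Igf2, 1 of 3 was higher and 1 lower. Outside the lists, and chosen after their values were seen, Snrpn was 39.1-fold higher (16.4 to 122) with 139 UMIs in 20 nuclei, and Grin2a, an NMDA receptor subunit, gave 64 UMIs in 13 nuclei against 0.

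Of 15 counted fibre metabolism genes 3 (against 15% of all genes) were higher in Myh8-low nuclei and 2 lower, with a median ratio of Myh8-high to Myh8-low of 0.935. Gbe1, the glycogen branching enzyme, gave 686 UMIs in 47 Myh8-low nuclei and 27 UMIs in 12 Myh8-high nuclei, a ratio of Myh8-high to Myh8-low of 0.0554 (0.0362 to 0.0813). Phka1, a subunit of phosphorylase kinase, was 3.55-fold higher in Myh8-low nuclei (2.93 to 4.33). Pfkfb3, an activator of glycolysis chosen after its values were seen, gave 81 UMIs in 18 Myh8-low nuclei, up to 28 in 1, and 0 in Myh8-high nuclei. Pygm and Ampd1, both of fibre energy supply, stood at 559 and 673 CPM in Myh8-high and at 466 and 429 CPM in Myh8-low nuclei.

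Of 19 counted genes of the atrophy and stress list, 8 were lower in Myh8-high nuclei and 3 higher, with a median ratio of 0.587. Fbxo32, the ubiquitin ligase atrogin-1, was 5.68-fold higher in Myh8-low nuclei (4.15 to 7.96), and Trim63, the ligase MuRF1, 2.19-fold higher (1.63 to 2.98). Ankrd1, a stretch- and injury-responsive partner of titin that was also on the junction list, was 8.57-fold higher (5.90 to 12.9). Trim55, the sister ligase MuRF2, had the opposite sign and was 3.67-fold higher in Myh8-high nuclei (2.71 to 5.05). Runx1, a transcription factor induced in denervated muscle, was the most abundant gene of the list with 2017 CPM in Myh8-low and 1183 CPM in Myh8-high nuclei, and it also stood at 1138 CPM in the rest. Of 10 counted neuromuscular junction genes 3 were higher in Myh8-high nuclei and 3 lower, with a median ratio of 1.60. Among those lower, Musk, the receptor that organises the neuromuscular junction, was 3.21-fold higher in Myh8-low nuclei (2.57 to 4.05, 434 UMIs in 37 nuclei). The fetal acetylcholine receptor gene Chrng (24 UMIs in 7 Myh8-low nuclei, 25 UMIs in 14 Myh8-high nuclei) had an interval of the ratio from 0.804 to 2.68. The adult receptor subunit Chrne gave 13 UMIs, all in 1 Myh8-low nucleus.

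The immune list was low in both fibre clusters but unequal between them. It stood at 384.8 CPM in Myh8-low and 65.6 CPM in Myh8-high nuclei, against 4404 CPM in the rest. Of the 157 UMIs in Myh8-low nuclei 30 were Ptprc, found in 12 nuclei. Adgre1 (4 UMIs) and Cd84 (3 UMIs) were at 0 in Myh8-high nuclei, which had 1 UMI of Ptprc. The fibrogenic list stood at 176 CPM in Myh8-low and 82.8 CPM in Myh8-high nuclei. The vascular list went the other way, at 2632 and 4154 CPM, with 3 of 4 counted genes higher in Myh8-high nuclei, none lower and a median ratio of 3.86 (4.98 without shared barcodes), and Cdh13 gave 1137 of its 1204 UMIs there. Their part in the differences between the fibre clusters was not tested.

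Of the muscle transcription factors most lay within 2-fold between the fibre clusters, with 0 of 12 counted genes higher in Myh8-high nuclei, 2 lower and a median ratio of 0.896. Mef2c, which drives sarcomere genes, stood at 2936 CPM in Myh8-low and 3154 CPM in Myh8-high nuclei, a ratio of 1.07 (0.984 to 1.17). The 2 lower genes were Myf6, the regulator of mature fibres (0.375, interval 0.181 to 0.722), and Myog (0.379, interval 0.139 to 0.897). Both rested on few UMIs, 12 against 45 and 7 against 26, and 1 Myh8-low nucleus held 11 of the 26 Myog UMIs.

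The Pax7 side of the members, that is the 16 with at least 1 Pax7 UMI (12.6%, interval 7.38 to 19.7%), did not form a group of satellite cells. Of the 16, 12 lay in the fibre-like cluster, 3 in the satellite-like cluster and 1 elsewhere, and 12 had a single Pax7 UMI. Their median depth was 10417 UMIs against 4735 in the 111 members without Pax7. After thinning every nucleus to 500 UMIs, Pax7 was left in 2 of 127 members (1.57%) and in 0.407% of the rest (1.22% before thinning), at median depths of 5018 and 2179 UMIs. By contrast it was left in 37.5% of the 16 satellite-like nuclei that the rule did not take (87.5% before thinning, median 6279.5 UMIs). Within Myh8-high nuclei Pax7 was found in 7 of 27 before and 0 of 27 after thinning. For these 16 members the data thus go against the label of a satellite cell side, and this side is called by its rule here.

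Between members with and without Pax7, 9.92% of 8003 counted genes were at least 2-fold higher and 12.9% at least 2-fold lower in those with Pax7. Of the satellite cell list, without Pax7, 1 of 12 counted genes was higher and 1 lower, with a median ratio of 1.15 against 1.00 over all genes. The higher gene was Notch3, a receptor that keeps satellite cells quiescent, with 14 UMIs in 7 nuclei against 9 UMIs in 5 nuclei (5.78-fold, interval 2.33 to 15.1). The summed satellite list stood at 4955 CPM with Pax7 and 3659 CPM without (ratio 1.35, from 842 and 2311 UMIs), and Ncam1 made up 476 of the 842 UMIs. Of the nuclei with Pax7, 7 were Myh8-high and 5 Myh8-low, and this list stood at 5255 and 2451 CPM in those clusters. The part of this mix of clusters in the ratios between members with and without Pax7 was not tested. Of the sarcomere lists, 0 of 9 counted thick filament genes were higher and 2 lower with Pax7, as were 0 and 2 of 12 thin filament genes and 1 and 2 of 17 Z-disc genes. Their summed levels had ratios of 1.15 (1.08 to 1.21) for the thick filament, 0.709 (0.638 to 0.786) for the thin filament and 0.810 (0.757 to 0.867) for the Z-disc. Among the largest ratios, Col25a1, a muscle collagen needed by motor axons, gave 38 UMIs against 5, but in only 3 nuclei with Pax7 and with up to 18 UMIs in 1 nucleus. Sema3a, an axon guidance factor made by satellite cells and muscle, gave 31 UMIs in 6 nuclei against 23 UMIs in 15. At the other end Pfkfb3, which was also absent from Myh8-high nuclei, gave 0 against 90 UMIs.

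Most Pax7 signal of the library lay outside the rule, a split that the rule itself shaped. Pax7 made up 0.0663% of the members' rule-gene UMIs, and nuclei entered mainly through Ttn and Neb. The nucleus with the most Pax7 UMIs had a rule-gene share of 0.340%, so that Pax7 could not carry it past 0.5%. The values below are a description. Of 167 Pax7 UMIs in 42 retained nuclei, 142 in 26 nuclei were outside the members. Among the 17 nuclei with 2 or more Pax7 UMIs, 13 were outside the members, with 129 UMIs and up to 27 in 1 nucleus, and all 13 were in the satellite-like cluster. Their median rule-gene share was 0.270%, below the threshold, and the band of 0.25 to 0.5% held 85 Pax7 UMIs in 8 of its 19 nuclei.

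**Figure D5:**
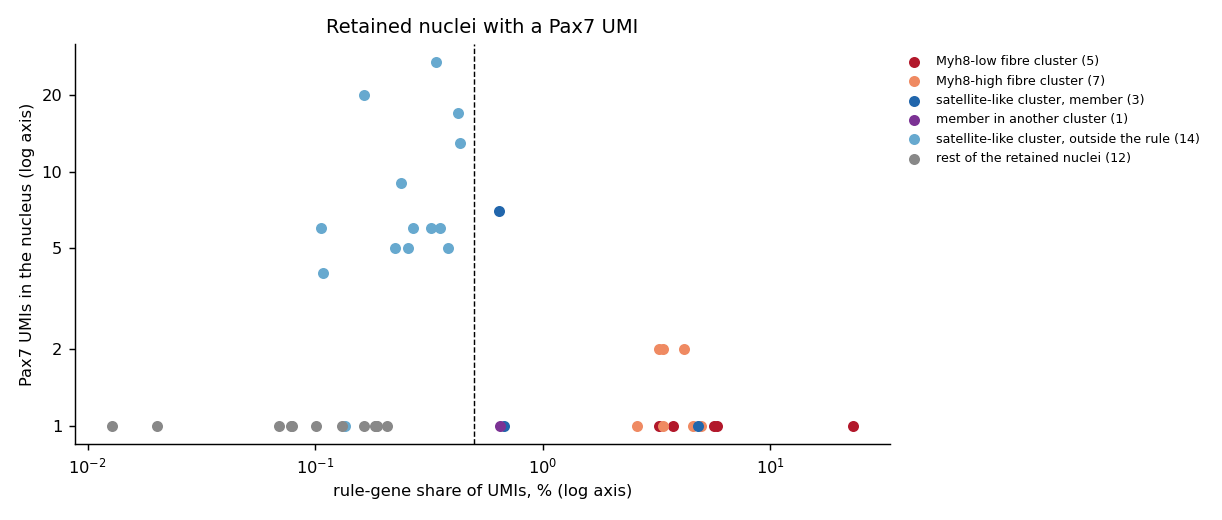
Pax7 UMIs (y axis, log scale) against the percentage of UMIs in the 7 rule genes (x axis, log scale) for the 42 retained nuclei with a Pax7 UMI, the dashed line marking 0.5%. Nuclei with 4 or more Pax7 UMIs lie left of the line but for 1 member with 7, and the members to the right have 1 or 2.

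The satellite-like cluster was split by the rule into 11 members and 16 nuclei outside it, with median depths of 6856 and 6279.5 UMIs. Their median mitochondrial shares were 0.636% and 0.149%, and the part of this in the differences below was not tested. The members had a median of 1.40% of UMIs in the rule genes and the others 0.263%, values that the rule fixed. In the 11 members Ttn ran from 2 to 299 UMIs per nucleus and was present in all 11, while Myh4 was at 0 and Myh1 gave 1 UMI. Pax7 stood at 7 UMIs in 1 of the members, at 1 UMI in each of 2 and at 0 in 8, against 130 UMIs in 14 of the 16 nuclei outside. Ttn and Pax7 both count toward the rule that split the cluster, so that these values are a description. In the 11 members Ttn and Neb gave 983 and 210 of the 1212 rule-gene UMIs, so that the split was itself made on fibre genes. Other muscle genes that vary with Ttn and Neb can differ through that choice, and the ratios between the 2 parts describe them and test nothing. The name satellite-like belongs to the cluster as a whole and is not a label for each of the 11 members. Of the 22 genes of the satellite cell list, 16 were detected in these members and 21 in the 16 nuclei outside. Those at 0 in the members were Calcr, Chodl, Hey1, Sdc4, Msc and Cdh4, while Hey1 alone was at 0 outside.

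Over the 4166 genes counted between the 2 groups, 13.9% were at least 2-fold higher in the members and 24.6% at least 2-fold lower. Of the muscle transcription factors 6 of 10 counted genes were higher and 1 lower, with a median ratio of 2.98 against 0.871 over all genes. Myog, which starts terminal differentiation, gave 15 UMIs in 4 of the 11 members and 0 in the others, at least 8.17-fold higher against 3 counts. Mef2a was 6.67-fold higher (5.00 to 9.03) and found in all 11 members, and Sox6, a repressor of slow fibre genes, was 6.24-fold higher (3.86 to 10.5). Eya1, a transcriptional cofactor of muscle progenitors, was lower at 0.221 (0.0677 to 0.563). Myod1 was at 3 UMIs in each group and allowed no fold, and Myf5, a factor of satellite cells and myoblasts, gave 1 UMI against 6.

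Genes of fusion and of new fibres were higher in these members. Of the regenerating fibre list 6 of 8 counted genes were higher and none lower. Mymk, encoding the fusion protein myomaker, gave 13 UMIs in 5 members and 0 outside, at least 7.08-fold higher. Of the 18 Mymk UMIs in all members, 13 lay in these 11 nuclei. Tnnt2 gave 28 UMIs in 6 nuclei and 0 outside, and Myh3 gave 15 UMIs in 4 nuclei and 0 outside. Tead4, a TEAD factor acting on M-CAT motifs and chosen after its values were seen, gave 41 UMIs in 6 nuclei and 0 outside, at least 22.3-fold higher. Sntb1 was 13.0-fold higher (8.76 to 20.0) with 223 UMIs in 9 of 11 members. Runx1 reached 6305 CPM in these members, 2.65-fold the level in the nuclei outside (2.28 to 3.08).

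Many satellite cell and cell cycle genes were lower in these members. Of the satellite cell list 8 of 17 counted genes were lower and 1 higher, with a median ratio of 0.558. Notch3 stood at 7 UMIs in 3 members and 169 UMIs in 15 of 16 nuclei outside, a ratio of 0.0677 (0.0268 to 0.142). Calcr, the calcitonin receptor of quiescent satellite cells, gave 0 against 17 UMIs, the latter in 2 nuclei, and Chodl, a chondrolectin of satellite cells, 0 against 36 UMIs in 8 nuclei. The summed list hid this contrast, at 7901 CPM in the members and 7596 CPM outside (ratio 1.04, interval 0.937 to 1.15), since Ncam1 was 2.77-fold higher in the members. Megf10, an engulfment receptor of satellite cells, was 1.86-fold higher (1.36 to 2.56).

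Of the 10 counted cell cycle genes 9 were lower in these members and none higher, with a median ratio of 0.446. The summed list stood at 469.5 CPM against 2061 CPM outside, 1163 CPM in the rest and 88.2 and 121 CPM in Myh8-low and Myh8-high nuclei. Top2a, the topoisomerase of dividing cells, gave 0 against 36 UMIs in 5 nuclei. The exception was Mki67, a proliferation marker, with 10 UMIs in 2 members against 15 UMIs in 4 nuclei outside, and 7 of the 10 lay in the 1 of these members with a shared barcode. Bmp6, chosen after its values were seen, gave 0 against 105 UMIs in 8 nuclei.

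The fibrogenic list was also lower in the 11 members of the satellite-like cluster, at 523 CPM against 1987 CPM outside and 4487 CPM in the rest, with Col1a2 at 11 UMIs in 6 members and 80 UMIs in 15 of the 16 nuclei outside. Dcn, Lum, Cd34 and Ly6a gave 4, 0, 0 and 0 UMIs in all 127 members. The immune list gave 4 UMIs in the 11 members and 34 UMIs outside, 16 of them Ptprc in 2 nuclei. The part of these markers in the differences was not tested.

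Set against these 11 members, the fibre-like cluster was at least 2-fold higher in 14.5% of 7755 counted genes and lower in 21.6%. It was higher in 8 of 9 counted thick filament genes, 12 of 17 Z-disc genes and 11 of 15 fibre metabolism genes. It was lower in 7 of 12 counted satellite cell genes and in 6 of 10 regenerating fibre genes, of which 3 were higher. Of the 10 membrane genes 6 were higher and 1 lower (median ratio 2.29), with Dmd at 3139 CPM in the 11 members. The median mitochondrial share was 0.135% in the fibre-like cluster and 0.636% in the 11 members. The fibrogenic list stood at 138 and 523 CPM, with 1 of 5 counted genes higher and 4 lower in the fibre-like cluster, and the immune list at 252 and 53.7 CPM. Their part in these differences was not tested.

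The 17 members outside both clusters were shallow, with 509 to 9358 UMIs (median 641). Ttn supplied 385 of their 457 rule-gene UMIs and was found in 16 of them, whereas Dmd gave 23 UMIs and the other 9 genes of the membrane list together gave 1. These 17 nuclei stood above the rest in the thick filament (1305 against 51.0 CPM), thin filament (1374 against 426) and Z-disc lists (1202 against 141). The same held for excitation-contraction coupling (1477 against 409 CPM) and the membrane list (824 against 521 CPM). Each value for the 17 nuclei rested on 24 to 43 UMIs. The neuromuscular junction (1065 against 1131 CPM) and myotendinous junction lists (893 against 1262 CPM) were not higher. Their immune list stood at 3983 CPM, close to the 4404 CPM of the rest, with Dock2 (30 UMIs) as its most abundant gene, and their cell cycle list stood at 755.5 CPM. Among those under 1000 UMIs, the 3 nuclei nearest to the threshold had 3 or 4 rule-gene UMIs each.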

How the data were processed

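Single-nucleus RNA-seq was measured in 2 libraries, 1 per condition, each of pooled mice. The deposited values were UMI counts per gene and barcode, which the authors made with the Cell Ranger count pipeline on mm10, counting intronic and exonic reads of the 10x 3′ kit. The labels also name a human reference, but all 32285 genes in the files are mouse genes. Totals were 5899407 UMIs at day 5 and 9389014 at day 1. No column was without a sample.

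Filters and rule were applied with Python 3.11.15 (numpy 2.4.6, scipy 1.17.1, pandas 2.3.3, matplotlib 3.10.9). Clustering used Seurat 5.3.0 (R 4.3.3), 2000 variable genes without the 7 rule genes, 30 components and resolution 1.0, with 2.0 and 0.5 beside it. No doublet caller was run. Groups were compared as summed counts with exact Poisson, Clopper-Pearson and conditional binomial 95% intervals. With 1 library per condition there was no test. The ratio script was tested on simulated data.

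Members and lists were chosen with earlier results of these data known. Genes were named as the 7 rule genes, the 4 most abundant of each list, the 15 highest and lowest ratios with at least 20 UMIs, and the myosins, Myf5, Myod1, Myog, Mymk and Mki67. Other genes, the finer split, the satellite-like comparison and the removal of shared barcodes were chosen after seeing the data. Promoters came from RefSeq.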

Additional observations from a re-analysis of the deposited data

Results flagged for a closer look

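A muscle signal was also present among barcodes that the filters removed. Of 319 removed barcodes, 17 passed the rule-gene threshold, with a median of 5252 UMIs, up to 45740 UMIs and a median mitochondrial share of 8.42%. They held 3 Pax7 UMIs and 2 of them had a barcode shared with the day 1 library. A further 14 members had a barcode that also occurred in the day 1 library with a similar UMI total (median 592 UMIs against 558.5), and whether these are the same nuclei was not tested.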

How the results depend on the processing

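Of 47 alternatives, 36 left their result within its counting interval or within 1.5 times of a count, 11 moved it and 0 reversed it. The share of members was 11.3% and fell to 9.41% without Ttn among the rule genes, and it was 13.0%, 10.5% and 9.49% at thresholds of 0.25%, 1% and 2%. Members with Pax7 were 12.6% of members but 3.15% when at least 2 Pax7 UMIs were required. The satellite list ratio of 1.35 between members with and without Pax7 became 1.82 as a mean over nuclei and 1.52 with at least 2 Pax7 UMIs. The sarcomere ratio of members to other nuclei was 27.9 from sums and 26.7 as a mean over nuclei. The 1827 genes past 2-fold between members with and without Pax7 became 541 with at least 30 UMIs and 645 at a ratio of 3. Nuclei at 20% or more of rule-gene UMIs numbered 12, and 1 without shared barcodes. Pax7 was found in 1.57% of members after thinning to 500 UMIs and in 12.6% without thinning, and Ncam1 in 32.3% at 500 UMIs, 54.6% at 1000 UMIs and 59.8% without thinning. The causes were not tested. No paired analysis was possible because each condition has 1 library, and no replicate could be left out for the same reason.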
